A study of Mus musculus with 6 samples.

Results

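Tumour necrosis factor (TNF), lymphotoxin alpha and lymphotoxin beta are cytokines of one family, and they act through a small set of shared receptors and adaptors. The 9 genes described here were chosen by symbol from the 18477 genes of the deposited colon table, and all 9 were found and passed the filter on low counts. They are the ligands Tnf, Lta and Ltb, the receptors Tnfrsf1a, Tnfrsf1b and Ltbr, the deubiquitinating enzyme gene Tnfaip3, and the adaptors Traf1 and Traf2. Expression was measured in 6 colon RNA-seq libraries, each from 1 male C57BL/6 mouse bought at 6 to 8 weeks of age. All mice drank 2% dextran sulfate sodium (DSS), a polymer that injures the colon epithelium and causes colitis, for the last 7 of 14 days. Throughout the 14 days, the DSS group (n = 3) received PBS by gavage and the DSS+BV group (n = 3) received the gut bacterium *Bacteroides vulgatus* in PBS. Both groups therefore had DSS, and mice without DSS were not analysed here.

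TNF is made mainly by activated macrophages, monocytes and T cells. It is released from the cell surface by cleavage and binds TNF receptor 1 (Tnfrsf1a), present on most cells, and TNF receptor 2 (Tnfrsf1b), found mostly on immune and endothelial cells. TNF receptor 1 recruits TRADD, RIPK1 and TRAF2 and activates NF-κB or, when that arm fails, cell death. NF-κB in turn induces Tnfaip3 (A20), which shuts the signal off, and Traf1. Lymphotoxin alpha with lymphotoxin beta forms a surface complex on lymphocytes and lymphoid tissue inducer cells that binds the lymphotoxin beta receptor (Ltbr) on stroma and epithelium, and this pair is known for building lymph nodes, Peyer's patches and the lymphoid follicles of the colon.

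The 6 libraries held between 15293276 and 17254343 expected counts. Of 14579 tested genes, edgeR called 13 lower and 0 higher in the DSS+BV group, against 1329 and 496 at an unadjusted p-value under 0.05, and DESeq2 called 281 lower and 46 higher. Replicate mice varied beyond the sampling noise of counts, and every pair within a group had at least 42.7 chi-square units per degree of freedom. No epithelial marker was at 0 in any library, and the 12 epithelial markers summed to between 12462 and 21294 CPM (counts per 1000000 of the TMM-scaled total) in the DSS group and between 21963 and 41217 CPM in the DSS+BV group. The libraries also differed in lymphoid genes within both groups. Cr2, the complement receptor of B cells and follicular dendritic cells, had 18.1, 0.373 and 25.9 CPM in DSS mice 1 to 3, compared with 33.5, 0.573 and 0.885 CPM in DSS+BV mice 1 to 3. DSS 1, DSS 3 and DSS+BV 1 thus stood apart from the other libraries in this gene, which was named after its values were seen.

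No member of the group passed the test. With edgeR's quasi-likelihood test, a Benjamini-Hochberg adjusted p under 0.05 and a difference of more than 1 on the log2 scale, 0 of the 9 genes were called, where 0.0892% of all tested genes were. DESeq2 also called 0 of the 9, where it called 2.07% of the genes it gave an adjusted p (1.78% lower and 0.291% higher). At an unadjusted edgeR p under 0.05 there was 1 of 9, Tnf, against 12.5% of all tested genes (9.12% lower and 3.4% higher). This count was 0 without DSS 3, DSS+BV 2 or DSS+BV 3 and with the replicate number as a block. It was 3 without DSS 2 or DSS+BV 1. The numbers over all genes moved as well. Lower and higher genes at that p numbered 691 and 256 of 14695 without DSS 3. They numbered 609 and 160 of 14876 without DSS+BV 2, and 838 and 267 of 14851 without DSS+BV 3. With the block they were 1053 and 502 of 14579. Without DSS 2 they were 1331 and 1269 of 14750, and without DSS+BV 1 they were 1633 and 716 of 14853. All 9 log2 fold changes of DSS+BV against DSS lay below 0, with a median of -0.45, while 51.5% of all tested genes lay below 0 with a median of -0.01. The 9 genes share libraries and cells and are not independent of each other. In a whole-tissue sample, fewer cells of a type and less RNA per cell cannot be told apart.

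**Figure D1:**
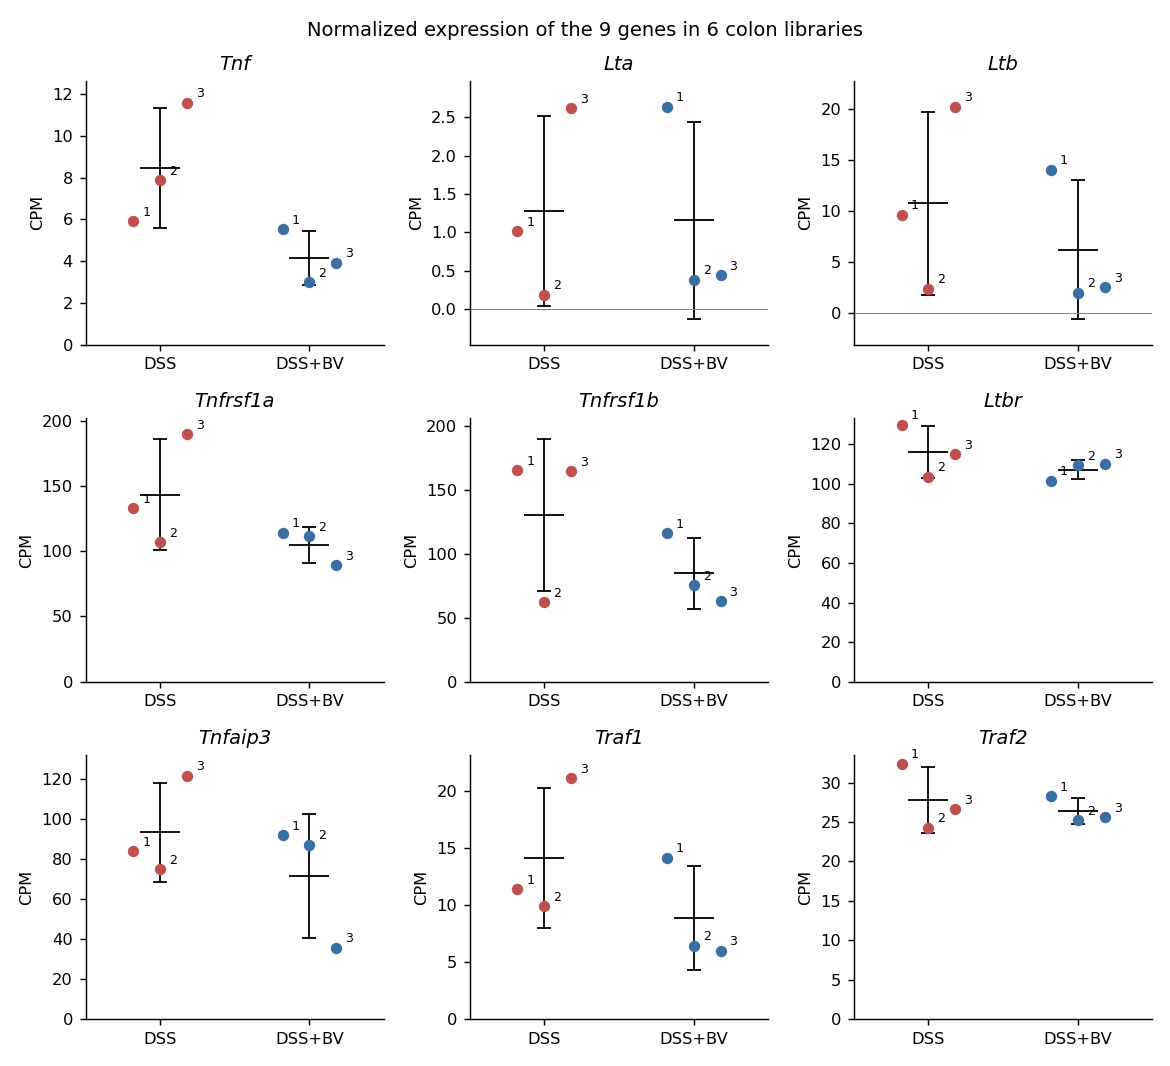
Normalized expression (CPM, vertical axes from 0 or just below) of each of the 9 genes in the 3 DSS libraries (red) and the 3 DSS+BV libraries (blue), with the replicate number beside each point and the mean ± SD in black. Tnf is the only gene of the 9 whose groups do not overlap, while Lta and Ltb are high in DSS 3 and DSS+BV 1 and low in DSS 2, DSS+BV 2 and DSS+BV 3.

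Among the ligands, Tnf was lower in every DSS+BV library than in every DSS library. Tnf (Entrez gene 21926) was at 5.93, 7.90 and 11.6 CPM in DSS 1, 2 and 3, from 99, 127 and 199 counts. DSS+BV mice 1 to 3 had 5.54, 2.99 and 3.92 CPM, from 84, 47 and 62 counts. The groups did not overlap, although the lowest DSS library and the highest DSS+BV library lay close together, with 95% exact Poisson intervals of 80.5 to 121 and 67.0 to 104 for their counts. Separation in this direction was seen in 1 of the 9 genes and in 11.3% of all tested genes, while 6.37% separated in the other direction and 0 of the 9 did. The means were 8.47 ± 2.87 CPM and 4.15 ± 1.29 CPM (SD, n = 3 each), a ratio of 0.490. Between groups, the log2 fold change was -1.03 (standard error 0.358, 95% interval -1.88 to -0.17), with an adjusted p of 0.356 from edgeR and 0.169 from DESeq2.

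The lymphotoxin genes varied far more within the groups than between them. Ltb (Entrez gene 16994), which anchors the lymphotoxin complex in the membrane, was at 9.64, 2.42 and 20.2 CPM in DSS 1, 2 and 3. The values were 14.05, 2.04 and 2.59 CPM in DSS+BV mice 1 to 3. The groups overlapped almost fully, and the highest of the 6 libraries was 9.91 times the lowest. DSS+BV against DSS gave a log2 fold change of -0.79 (standard error 0.957, 95% interval -3.08 to 1.495, edgeR adjusted p = 0.757). It ran from -2.21 without DSS+BV 1 to 0.04 without DSS 3, so its size and sign rested on single libraries.

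Lta (Entrez gene 16992), whose product is secreted alone or joined to lymphotoxin beta, had the fewest counts of the 9 genes. It had 17, 3 and 45 counts in DSS mice 1 to 3, compared with 40, 6 and 7 counts in DSS+BV mice 1 to 3. The 3 counts of DSS 2 carry an exact 95% Poisson interval of 0.619 to 8.77, and such intervals cover counting error only. In CPM the values were 1.02, 0.187 and 2.62 in the DSS mice as against 2.64, 0.382 and 0.443 in the DSS+BV group. The highest values of the 2 groups were nearly equal. The log2 fold change was -0.15 (standard error 1.04, 95% interval -2.65 to 2.34, edgeR adjusted p = 0.964), and it reached 0.92 without DSS 3 and -1.61 without DSS+BV 1.

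The 3 ligand genes lie side by side on chromosome 17 of GRCm38.p6, within the major histocompatibility complex. By RefSeq, Ltb spans 35194507 to 35196305 on the plus strand, Tnf spans 35199367 to 35202007 on the minus strand, and Lta spans 35203165 to 35205578 on the minus strand. The gap between Tnf and Lta is 1157 bases and that between Ltb and Tnf is 3061 bases. Despite this position, Tnf did not follow the lymphotoxin genes across libraries, since DSS 2 held the second-highest Tnf value but the lowest Lta value. The RefSeq promoter windows (250 bases before to 50 after the start, minus-strand genes reverse complemented) are shown to compare the neighbouring genes, with letters in capitals where the κB pattern (GGG, any 3 bases, TTCC) or the AP-1 pattern TGANTCA matched on either strand. The windows are chr17:35201958-35202257 (minus strand) for Tnf, chr17:35205302-35205601 (minus strand) for Lta and chr17:35194257-35194556 (plus strand) for Ltb.
Tnf: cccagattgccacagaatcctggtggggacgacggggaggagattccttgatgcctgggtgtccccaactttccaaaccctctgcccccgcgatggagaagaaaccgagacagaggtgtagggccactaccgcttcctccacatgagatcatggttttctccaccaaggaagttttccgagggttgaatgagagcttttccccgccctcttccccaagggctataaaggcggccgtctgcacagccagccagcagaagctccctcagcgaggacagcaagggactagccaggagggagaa
Lta: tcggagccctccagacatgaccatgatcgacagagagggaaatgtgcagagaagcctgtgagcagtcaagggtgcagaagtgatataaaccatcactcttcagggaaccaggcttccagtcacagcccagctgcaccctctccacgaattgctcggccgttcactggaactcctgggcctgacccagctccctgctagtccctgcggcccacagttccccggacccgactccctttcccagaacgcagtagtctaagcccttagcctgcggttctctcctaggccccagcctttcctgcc
Ltb: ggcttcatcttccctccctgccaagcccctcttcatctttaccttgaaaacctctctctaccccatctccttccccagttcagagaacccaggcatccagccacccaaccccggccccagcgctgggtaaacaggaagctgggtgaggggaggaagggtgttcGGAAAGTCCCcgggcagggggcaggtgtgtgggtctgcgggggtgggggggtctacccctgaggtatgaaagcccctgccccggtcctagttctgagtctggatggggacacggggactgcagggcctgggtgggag
The Ltb window held 1 match to the κB pattern, GGAAAGTCCC, which begins at position -87 from the start and is read on the opposite strand. The windows of Tnf and Lta held no match to either pattern, which says only that these letters do not occur in these 300 bases. Of 32851 promoter windows in the table, 5.56% held the κB pattern and 7.81% the AP-1 pattern.

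Tnf mRNA is also known for the AU-rich elements of its 3′ untranslated region, bound by the RNA-decay protein tristetraprolin (Zfp36). In the GENCODE transcript with the longest such region, Tnf held 8 copies of ATTTA and 5 of the nonamer TTATTTATT in 767 bases. A stretch of 30 bases that holds several of them is shown with ATTTA in capitals.
Tnf element: tattATTTAttATTTATTTAttATTTAttt
At least 1 nonamer was present in 7.43% of 21668 genes and at least 3 in 0.651%. Lta and Tnfaip3 held 1 nonamer each, and the other members, Ltb among them, held 0. Zfp36 itself had a log2 fold change of -0.02 (edgeR adjusted p = 0.988).

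**Figure D2:**
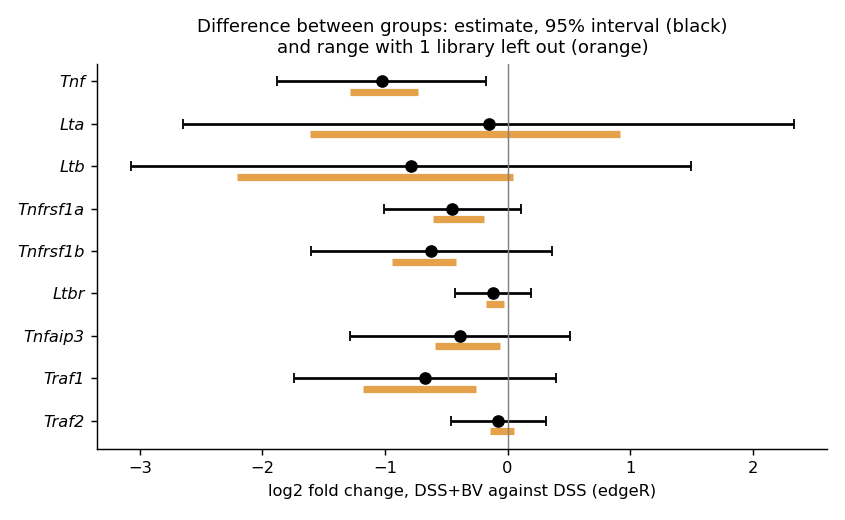
Log2 fold change of DSS+BV against DSS for each gene (horizontal axis, edgeR), with the estimate and its 95% interval in black and the range with 1 library left out in orange. Of the 9 intervals, that of Tnf leaves out 0, and those of Lta and Ltb are the widest.

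Of the 3 receptors, 0 passed the test. Tnfrsf1a (Entrez gene 21937, chromosome 6, 125349723 to 125362483) encodes TNF receptor 1 and was at 133, 107 and 190 CPM in DSS 1, 2 and 3. DSS+BV mice 1 to 3 had 114, 111 and 89.0 CPM. The 2 highest values were in the DSS group, but DSS 2 lay below DSS+BV 1 and DSS+BV 2. Between groups, the log2 fold change was -0.45 (standard error 0.233, 95% interval -1.01 to 0.11, edgeR adjusted p = 0.478), and -0.19 without DSS 3.

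Tnfrsf1b (Entrez gene 21938, chromosome 4, 145212368 to 145246870) encodes TNF receptor 2, and its values were 166, 62.2 and 165 CPM in DSS 1, 2 and 3. In DSS+BV 1, 2 and 3 they were 116, 75.7 and 63.0 CPM. DSS 2 held the lowest value of all 6 libraries, so the groups overlapped. DSS+BV against DSS gave a log2 fold change of -0.62 (standard error 0.412, 95% interval -1.61 to 0.36, edgeR adjusted p = 0.567), and -0.94 without DSS 2.

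Ltbr (Entrez gene 17000, chromosome 6, 125306571 to 125313885) was the steadiest receptor. It had 130, 104 and 115 CPM in DSS mice 1 to 3, compared with 101, 109 and 110 CPM in DSS+BV mice 1 to 3. The highest library was 1.28 times the lowest, against 9.91 times for its ligand gene Ltb. The log2 fold change was -0.12, with a 95% interval of -0.43 to 0.20 that leaves out a change of 2-fold in either direction (edgeR adjusted p = 0.736).

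The balance of the TNF receptors was compared within each library, which does not depend on scaling. The log2 ratio of Tnfrsf1b to Tnfrsf1a counts was 0.32, -0.78 and -0.20 for DSS mice 1 to 3, compared with 0.03, -0.55 and -0.50 for DSS+BV mice 1 to 3. Each group held a library near or above 0 and others below, and the groups overlapped. The means differed by -0.12 (exact permutation test, two-sided, p = 0.7, also 0.7 after adjustment over 2 ratios), where 3 against 3 libraries cannot give a p below 0.1. Tnfrsf1b counts include all cell types of the wall, so the ratio is not that of any one cell.

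Of the genes that act behind the receptors, Tnfaip3 (Entrez gene 21929, chromosome 10, 19000910 to 19015410) encodes A20, the ubiquitin-editing inhibitor of NF-κB. It had 83.8, 74.7 and 121 CPM in DSS mice 1 to 3, compared with 91.7, 86.9 and 35.7 CPM in DSS+BV mice 1 to 3. DSS+BV 3 was alone in its low value, while DSS+BV 1 and DSS+BV 2 lay above DSS 1 and DSS 2. Between groups, the log2 fold change was -0.39 (standard error 0.376, edgeR adjusted p = 0.695), and -0.06 without DSS+BV 3.

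The promoter window of Tnfaip3 (chr10:19015361-19015660, minus strand) is shown because it held the most matches of the 9 genes, 2 to the κB pattern and 1 to the AP-1 pattern, again in capitals.
Tnfaip3: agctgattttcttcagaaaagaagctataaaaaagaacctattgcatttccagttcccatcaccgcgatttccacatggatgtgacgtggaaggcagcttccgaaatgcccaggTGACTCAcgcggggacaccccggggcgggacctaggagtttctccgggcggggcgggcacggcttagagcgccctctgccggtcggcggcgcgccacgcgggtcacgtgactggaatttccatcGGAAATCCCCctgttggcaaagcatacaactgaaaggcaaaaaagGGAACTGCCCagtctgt
The κB matches GGAAATCCCC and GGAACTGCCC begin at positions -12 and 34 from the start, and the AP-1 match TGACTCA at position -136, with no overlap between them. A second RefSeq window of the gene held the κB match GGGTTATTCC. Outside Ltb and Tnfaip3, the window of Traf2 held 1 κB match and those of the other members held none of either pattern.

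Traf1 (Entrez gene 22029, chromosome 2, 34941750 to 34961812), an adaptor found mostly in activated lymphoid and myeloid cells, was at 11.4, 9.89 and 21.1 CPM in DSS 1, 2 and 3. The values were 14.2, 6.43 and 6.01 CPM in DSS+BV mice 1 to 3. DSS+BV 1 exceeded DSS 1 and DSS 2, and DSS+BV 2 and 3 lay below all DSS libraries. DSS+BV against DSS gave a log2 fold change of -0.67 (standard error 0.448, 95% interval -1.74 to 0.40, edgeR adjusted p = 0.570), from -1.18 without DSS+BV 1 to -0.26 without DSS 3.

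Traf2 (Entrez gene 22030, chromosome 2, 25517982 to 25546940), the adaptor present in most cells, overlaps a pseudogene on the other strand and was at 32.4, 24.2 and 26.6 CPM in DSS 1, 2 and 3. DSS+BV mice 1 to 3 had 28.2, 25.2 and 25.6 CPM. The values were close in all 6 libraries, the highest being 1.34 times the lowest. The log2 fold change was -0.07 (standard error 0.162, 95% interval -0.46 to 0.31, edgeR adjusted p = 0.874). The log2 ratio of Traf1 to Traf2 counts was -1.51, -1.29 and -0.33 in the DSS group and -0.99, -1.97 and -2.09 in the DSS+BV group. The groups overlapped, with a difference in means of -0.64 (exact permutation test, two-sided, p = 0.3, 0.6 after adjustment over 2 ratios).

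**Figure D3:**
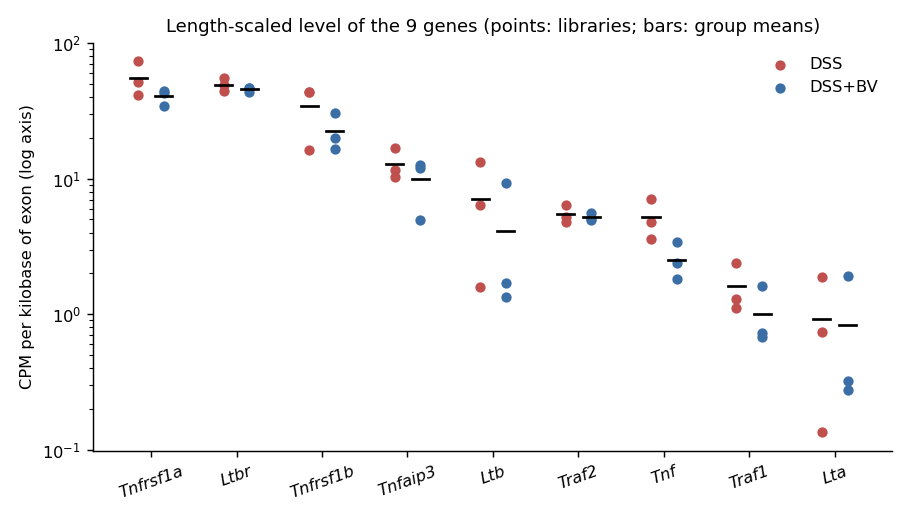
Level of each gene divided by the merged length of all its annotated exons (CPM per kilobase, log axis), ordered by the DSS mean. There is 1 point per library (DSS red, DSS+BV blue) and a bar at each group mean. The receptors lie at the top and Lta at the bottom in both groups.

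Divided by exon length, with all annotated exons of a gene merged, the receptors were the highest members and Lta the lowest. Merged lengths ran from 1.38 kilobases for Lta to 8.82 for Traf1, and a single transcript can be shorter. The order of the members may depend on this choice, and levels per single transcript were not computed. In the DSS group Tnfrsf1a had 55.2 ± 16.4 CPM per kilobase, Ltbr 49.3 ± 5.57 and Tnfrsf1b 34.3 ± 15.6 (SD, n = 3 each). Tnfaip3 followed at 12.9 ± 3.42, Ltb at 7.10 ± 5.90, Traf2 at 5.44 ± 0.822 and Tnf at 5.17 ± 1.75 CPM per kilobase. Traf1 was at 1.60 ± 0.693 and Lta at 0.922 ± 0.895 CPM per kilobase. Most neighbours in this order had overlapping ranges over the 3 libraries. In the DSS group only Ltbr against Tnfrsf1b and Tnf against Traf1 did not overlap. In the DSS+BV group Ltbr (45.5 ± 2.05) and Tnfrsf1a (40.5 ± 5.31) changed places within overlapping ranges, as did Traf2 (5.17 ± 0.321) and Ltb (4.11 ± 4.47). Tnf there was at 2.53 ± 0.786 CPM per kilobase, above every library of Traf1 and below every library of Traf2.

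The libraries with high Lta and Ltb, DSS 1, DSS 3 and DSS+BV 1, were also those with high Cr2. The 12 B and plasma cell markers in the table summed to 1006, 819 and 2045 CPM in DSS mice 1 to 3, compared with 1527, 531 and 487 CPM in DSS+BV mice 1 to 3. Jchain, the most abundant of them, alone had 533, 537 and 1378 CPM and 937, 260 and 235 CPM in the same order. The sum therefore largely follows this gene. None of the 12 was at 0 in any library, and 0 of the 12 were called by edgeR (0 also at an unadjusted p under 0.05 and 0 by DESeq2). The 12 T cell markers in the table summed to 60.7, 49.9 and 97.8 CPM in DSS mice 1 to 3, compared with 105, 46.6 and 49.9 CPM in DSS+BV mice 1 to 3, with 0 called by either tool. Their highest sums were in DSS 3 and DSS+BV 1, the libraries with the most Lta. The part of lymphocyte number in the Lta and Ltb values was not tested.

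Tnf and Traf1 are also expressed by myeloid cells, whose markers differed between libraries. The 16 macrophage and monocyte markers summed to 1644, 1076 and 2298 CPM in DSS mice 1 to 3, compared with 1587, 723 and 683 CPM in DSS+BV mice 1 to 3, with 15 of 16 log2 fold changes below 0 and a median of -0.88. None of the 16 was called by edgeR (3 lower at an unadjusted p under 0.05, against 9.12% of all tested genes). DESeq2 called 2 lower, against 1.78% of the genes it gave an adjusted p. Lyz2, the most abundant, had a log2 fold change of -0.48 (edgeR adjusted p = 0.721). Of 11 tested neutrophil markers, edgeR called 5 lower (S100a8, S100a9, Mmp8, Cxcr2 and Retnlg). In the same list 10 were lower at an unadjusted p under 0.05, DESeq2 called 10 lower, 9 were lower without overlap, and the median log2 fold change was -3.61. Over all genes, edgeR called 0.0892% lower and DESeq2 1.78%. At that unadjusted p 9.12% were lower, called or not, and 11.3% were lower without overlap. The 13 markers in the table summed to between 216 and 1070 CPM in the DSS group and between 32.2 and 330 CPM in the DSS+BV group. The most abundant marker by mean was Ly6g, at 485, 76.1 and 854 CPM in the DSS mice as against 303, 215 and 19.1 CPM after DSS+BV. Without Ly6g, an alternative chosen after seeing the data, the other 12 summed to 185, 140 and 216 CPM in DSS mice 1 to 3, compared with 27.4, 16.6 and 13.2 CPM in DSS+BV mice 1 to 3, without overlap. Fibroblast markers summed to between 3781 and 4120 CPM and between 1357 and 1996 CPM, without overlap. Col3a1, the most abundant of them, alone had means of 1862 and 542 CPM. Of the 9 fibroblast markers, 5 were lower without overlap (11.3% of all tested genes were) and 4 overlapped. The edgeR test called 0 of them and DESeq2 called 3 lower. At an unadjusted edgeR p under 0.05, 7 of the 9 were lower, against 9.12% of all tested genes. Endothelial markers summed to between 545 and 766 CPM and between 356 and 492 CPM, also without overlap. Of these 9 markers, 4 were lower without overlap, 5 overlapped, and 0 were called by either tool. At that unadjusted p, 5 of the 9 were lower. The sums of smooth muscle markers (3460 to 4313 and 2667 to 4139 CPM) and innate lymphoid cell markers (168 to 319 and 222 to 256 CPM) overlapped. Epithelial sums were higher in every DSS+BV library, as given above. Of the 12 epithelial markers, 5 were higher without overlap (6.37% of all tested genes were) and 7 overlapped, among them Muc2, the most abundant. The edgeR test called 0 of these 12. DESeq2 called 2 higher, against 0.291% of the genes it gave an adjusted p. At an unadjusted edgeR p under 0.05, 6 of the 12 were higher, against 3.4% of all tested genes. Only Ngp, Camp and Cxcr1 of the neutrophil list and Il22 of the innate lymphoid list were at 0 in some libraries. Tnf was lower together with the fibroblast and endothelial sums and the neutrophil sum without Ly6g, and their part in its difference was not tested.

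**Figure D4:**
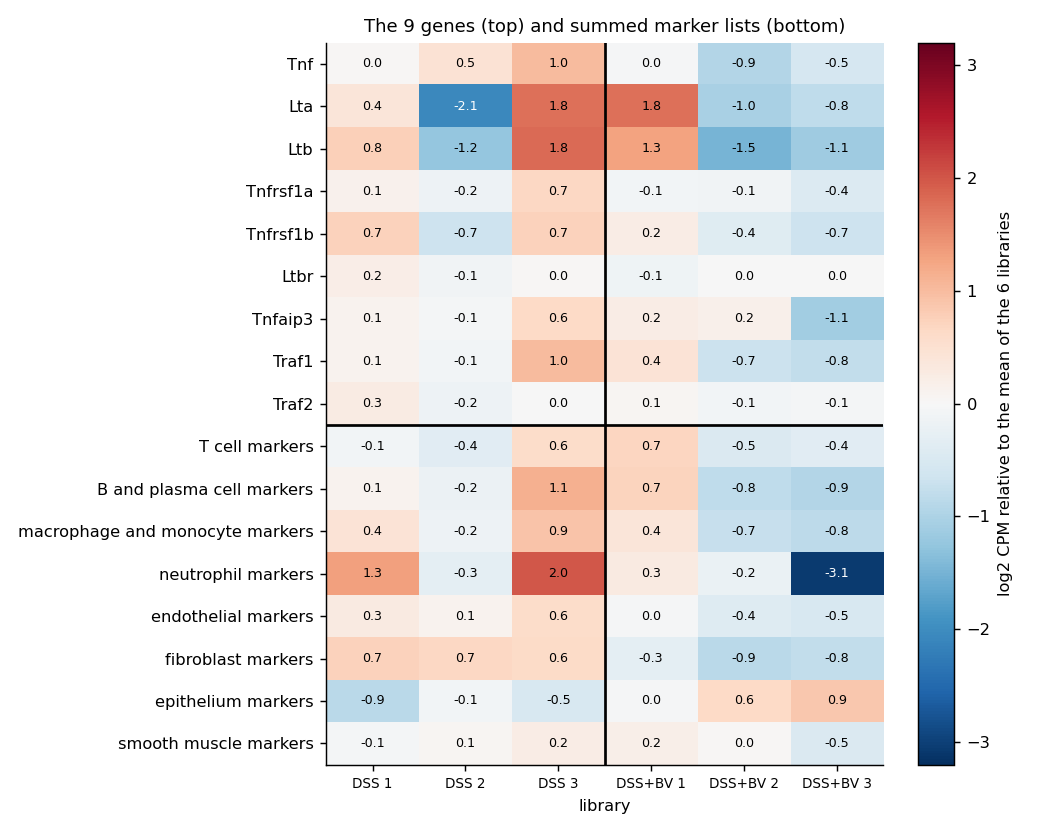
Log2 CPM of the 9 genes (upper rows) and of summed marker lists (lower rows) in each library, relative to the mean of the 6 libraries, with red for higher and blue for lower values and the DSS libraries left of the vertical line. Lta and Ltb are above the mean in DSS 1, DSS 3 and DSS+BV 1, the T cell and B cell marker sums are highest in DSS 3 and DSS+BV 1, and Ltbr and Traf2 stay near 0 throughout.

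The genes with the pattern most like each member were found by the Pearson correlation of log2 CPM over the 6 libraries, given as a description without a test. For Tnf they were Clasp2, Fbln5 and Cntn1 (r = 0.994, 0.994 and 0.993), and 675 tested genes had r over 0.9. For Lta they included Kynu and Grk2 (r = 0.995 and 0.995). For Ltb they were Pik3ap1, Rhoh and Gimap8 (r = 0.997, 0.995 and 0.995), all known from lymphocytes. For Traf1 they included Ehd3 and St8sia4 (r = 0.998 and 0.997). Rdh9, Ostf1 and Rbms1 were nearest to Tnfrsf1a, Snx5, Pip4p2 and Osr1 to Tnfrsf1b, and Psmc1, Ngdn and Oard1 to Ltbr. Sertad1, Phax and Ovgp1 were nearest to Tnfaip3, and Tomm6, Naf1 and Med27 to Traf2. Tested genes with r over 0.9 numbered 279 for Lta, 618 for Ltb, 490 for Tnfrsf1a and 404 for Tnfrsf1b. There were 909 for Traf1, 207 for Tnfaip3, 103 for Traf2 and 99 for Ltbr, so the nearest genes are a few of many. Among the members, Lta and Ltb had r = 0.953 with each other, while Tnf had 0.435 with Lta, 0.644 with Ltb and 0.863 with Traf1. All these values share the same 6 libraries and their differences in tissue content.

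The rest of the TNF family was read from hand-written lists. Of 15 other ligands, 11 were tested, and 9 had log2 fold changes below 0 with a median of -0.63, which was -0.09 without DSS 3 and -0.39 without DSS+BV 3. None was called by edgeR or DESeq2, and 3 had an unadjusted edgeR p under 0.05, against 12.5% of all tested genes. Tnfsf14 (LIGHT), another ligand of the lymphotoxin beta receptor, had 2.51, 1.37 and 2.45 CPM in DSS mice 1 to 3, compared with 0.923, 0.382 and 0.443 CPM in DSS+BV mice 1 to 3. Its groups did not overlap, and the log2 fold change of -1.85 had a standard error of 0.483 and an edgeR adjusted p of 0.287. The low values of the DSS+BV group make the size of this fold change imprecise. Eda, the ectodysplasin gene, had a log2 fold change of -1.26 (edgeR adjusted p = 0.257) and Tnfsf12 (TWEAK) one of -0.79 (edgeR adjusted p = 0.347), also without overlap. Of the 11 tested ligands, these 3 were lower without overlap, against 11.3% of all tested genes.

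Of 25 other receptors, 24 were tested, 18 lay below 0 and the median was -0.69. It ran from -1.04 without DSS+BV 1 to -0.24 without DSS 3, and was -0.43 without DSS+BV 3. None was called by edgeR or DESeq2. Without overlap, 4 of the 24 were lower and 1 was higher, against 11.3% and 6.37% of all tested genes. At an unadjusted edgeR p under 0.05 there were 3 lower and 1 higher, against 9.12% and 3.4% of all tested genes. The higher gene was Tnfrsf12a (Fn14), the receptor of TWEAK, at 12.6, 14.9 and 15.2 CPM in DSS 1, 2 and 3. The values were 20.2, 25.04 and 23.9 CPM in DSS+BV mice 1 to 3, above every DSS library. The log2 fold change of 0.69 had a standard error of 0.171 and an edgeR adjusted p of 0.272. DESeq2 gave it an adjusted p of 0.0205, with a fold change below the threshold. Tnfrsf9 (4-1BB), a costimulatory receptor of T cells, had a log2 fold change of -1.60 (edgeR adjusted p = 0.329), and Ngfr, the p75 neurotrophin receptor, one of -1.26 (edgeR adjusted p = 0.361).

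The signalling proteins next to the receptors were split between directions. Of 32 receptor-proximal genes, 15 lay below 0 and 17 above, with a median of 0.03, and 0 were called by edgeR or DESeq2. At an unadjusted edgeR p under 0.05, 2 were lower and 1 higher, against 9.12% and 3.4% of all tested genes. Without overlap, 1 was lower and 3 were higher, against 11.3% and 6.37% of all tested genes. Map3k8 (TPL2), the kinase that links NF-κB1 to ERK and to Tnf production, was at 8.14, 6.28 and 14.9 CPM in the DSS mice as against 6.20, 3.31 and 3.03 CPM in the DSS+BV group. DSS+BV 1 lay just below DSS 2, and the log2 fold change stood at -1.22 (standard error 0.439, edgeR adjusted p = 0.361). Chuk (IKKα) had one of 0.34 (edgeR adjusted p = 0.383) and Tradd, the first adaptor of TNF receptor 1, one of -0.39 (edgeR adjusted p = 0.399). The 10 cell death genes had a median of 0.07, led by Ripk3, the necroptosis kinase, at -0.72 (edgeR adjusted p = 0.431), with Xiap at 0.21. The 8 genes of TNF shedding and mRNA control had a median of -0.07, and the nearest to a difference were Zfp36l1 at -0.57, Rhbdf1 at 0.34 and Timp3, the inhibitor of the TNF-releasing protease, at -0.36 (edgeR adjusted p of 0.465 to 0.662). In both lists 0 genes passed in edgeR, at an unadjusted p under 0.05 and in DESeq2.

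Of 11 NF-κB subunits and inhibitors, 9 lay below 0 with a median of -0.16 (-0.04 without DSS+BV 3 and -0.28 without DSS 1), and 0 passed in edgeR, at an unadjusted p under 0.05 or in DESeq2. Nfkbia (IκBα), which NF-κB itself induces, had 70.1, 71.4 and 133 CPM in DSS mice 1 to 3, compared with 66.0, 58.7 and 57.7 CPM in DSS+BV mice 1 to 3. Nfkbia was the 1 gene of the 11 whose groups did not overlap, where 11.3% of all tested genes were lower without overlap. Its log2 fold change was -0.59 (standard error 0.268, edgeR adjusted p = 0.428). Rel had one of -0.82 and Bcl3 one of 0.41 (edgeR adjusted p = 0.523 and 0.554).

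Of 25 tested genes that TNF induces in many cells, 23 lay below 0 with a median of -0.93, and 13 were lower without overlap, against 11.3% of all tested genes. The list was written with results of these libraries known, and it holds Il6, Cxcl1 and Cxcl2, which the study itself named. This count is therefore not independent evidence of a direction, and other cytokines induce the same genes. The paper's text calls Il6, Cxcl1 and Cxcl2 upregulated with *B. vulgatus*. It also reports qPCR of them in the colon and concludes that the bacterium is anti-inflammatory in colitis. Here Cxcl2 was lower in every DSS+BV library than in every DSS library, and values of Il6 and Cxcl1 are not reported here. One gene fell in the edgeR test, Mmp9, a metalloproteinase abundant in neutrophils, whose DSS mean of 12.3 ± 0.934 CPM compared with 1.80 ± 0.09998 CPM after DSS+BV (SD, 3 mice each, edgeR adjusted p of 0.0179). With any 1 library left out, 0 genes of the list were called, and the median ran from -1.43 without DSS+BV 1 to -0.73 without DSS+BV 3. Csf3 (G-CSF) was at 4.01 ± 1.45 CPM and 0.216 ± 0.104 CPM, a log2 fold change of -4.17, and Cxcl2, a neutrophil chemokine, had one of -3.71 (edgeR adjusted p = 0.0828 and 0.0833). Csf3 had only 0.330, 0.191 and 0.126 CPM in DSS+BV mice 1 to 3. These values are near the floor, so the size of its fold change is imprecise. DESeq2 called 9 of the list lower, against 1.78% of the genes it gave an adjusted p. The vascular targets Icam1 and Vcam1 had log2 fold changes of -0.93 and -0.93 (edgeR adjusted p = 0.394 and 0.483), both with overlapping groups.

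**Figure D5:**
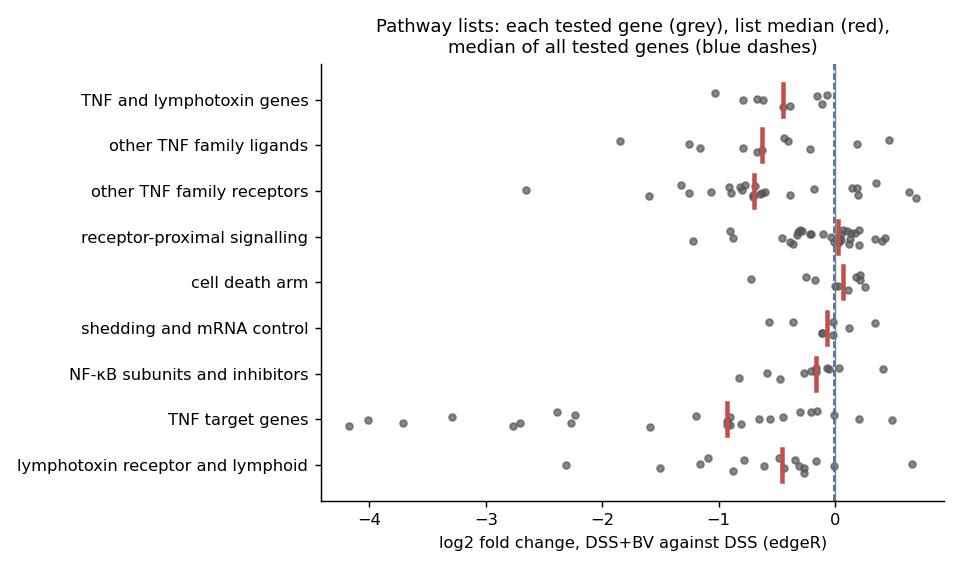
Log2 fold change of DSS+BV against DSS (horizontal axis) for every tested gene of 9 lists, with the list median in red and the median of all tested genes as a dashed blue line. The TNF target list has a median of -0.93, while receptor-proximal (0.03) and cell death (0.07) genes lie around 0.

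Genes of lymphotoxin receptor signalling and lymphoid tissue held none whose groups were separate. Of 16 tested, 15 lay below 0 with a median of -0.46. Of these 16, 0 were without overlap, where 11.3% of all tested genes were lower and 6.37% higher without overlap. The edgeR test called 0, with 1 at an unadjusted p under 0.05 (12.5% of all tested genes). That gene was Cxcl13, the B-cell attracting chemokine that lymphotoxin induces in stroma, at 267, 54.3 and 482 CPM in DSS 1, 2 and 3. DSS+BV mice 1 to 3 had 94.8, 31.7 and 35.2 CPM, so that DSS+BV 1 lay above DSS 2. Its log2 fold change was -2.31 (standard error 0.809, edgeR adjusted p = 0.358), and DESeq2 called it (adjusted p = 0.0447). Madcam1, the gut-homing addressin of vessels, had a log2 fold change of -1.09 and Ccl21a, the chemokine of lymphatic and T-zone stroma, one of -0.88 (edgeR adjusted p = 0.436 and 0.501). With 1 library left out, the list median ran from -1.53 without DSS+BV 1 to -0.08 without DSS 3. It was -0.92 without DSS 2, -0.28 without DSS+BV 2 and -0.26 without DSS+BV 3, and -0.91 with a replicate block.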

How the data were processed

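Colon RNA of 3 DSS and 3 DSS+BV mice was sequenced (DNBSEQ-T7), 1 library per mouse. The values deposited by the authors are unscaled RSEM expected counts for each gene. The submitters' processing notes name HISAT2 2.1.0, Bowtie2 2.2.5, RSEM 1.2.8 and GRCm38.p6. Expected counts, whole for all 9 genes, were rounded. Genes were kept with filterByExpr (minimum count 10, minimum total 15) and scaled with TMM factors. Groups were compared over 14579 genes by edgeR 4.0.16 (R 4.3.3, quasi-likelihood) with p-values adjusted after Benjamini and Hochberg. The study thresholds (adjusted p under 0.05, over 1 on the log2 scale in either direction) set the calls. Standard errors are the log2 fold change over the square root of the F statistic. Correlations used log2 CPM with a prior count of 2. The study's tool, DESeq2 (here 1.42.0), was an alternative, with other factors, filters, a robust fit, a replicate block and each library left out. Scripts were tested on simulated data.

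The members and lists were chosen with earlier results of these data known. Named list genes are those called, the 3 of smallest p in each pathway list, and the most abundant of each marker list. The rest were named after their values were seen. Some genes that the rule names are not reported here. Positions are from RefSeq and promoter sequences from RefSeq (GRCm38.p6, all 9 genes matched), and exon lengths and transcripts from GENCODE M21. Fdcsp, Trac, Trbc1, Trbc2, Ighm, Ighd and Igha were not matched in the table. Library strandedness is not given in the sources used here, and a pseudogene overlaps Traf2 on the other strand. The self-test results are not quoted. Depth was between 15293276 and 17254343 expected counts, so precision for Lta, with 3 to 45 counts, is low.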

Additional observations from a re-analysis of the deposited data

How the results depend on the processing

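Of the 9 genes, 0 were called under every alternative run, and adjusted p-values ranged from 0.169 (Tnf, DESeq2) to 0.997 (Ltb, edgeR without DSS 3). Tnf stayed below 0 in all alternatives, between -1.28 without DSS+BV 1 and -0.73 without DSS 3. With 1 library left out, the log2 fold change of Lta ran from -1.61 to 0.92, that of Ltb from -2.21 to 0.043 and that of Traf2 from -0.15 to 0.052. Lta turned positive without DSS 3 (0.92), DSS+BV 2 (0.27) or DSS+BV 3 (0.24), Ltb without DSS 3 (0.043) and Traf2 without DSS 1 (0.052). The cause was not tested. Over all genes, the number lower was 13 with edgeR and 281 with DESeq2, and between 0 and 3 with 1 library left out (3 without DSS+BV 1, 1 without DSS 2, 0 without any of the others, and at an unadjusted p under 0.05, 609 to 1633). The number higher was 0 with edgeR, 46 with DESeq2 and between 0 and 4 with 1 library left out (4 without DSS+BV 1 and 0 without any of the others). With the replicate number as a block, edgeR called 0 lower genes (1053 at an unadjusted p under 0.05) and 0 of the 9 genes. Same-numbered mice did not deviate together in every pair (r = 0.267, 0.255 and -0.296), and not every library correlated best with its own number, so the numbers were not taken as pairs and changed no call among the 9. The differences in the receptor and Traf ratios, over the libraries left out, ran from -0.40 (without DSS 2) to 0.15 (without DSS 1) and from -0.98 to -0.28. Depth limits Lta, which had under 10 counts in 3 libraries.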

Other observations

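Receptors of B-cell survival factors, which belong to the same family, were high in the same libraries as Lta and Ltb. Tnfrsf13c (the BAFF receptor) had 8.38, 0.684 and 11.4 CPM in DSS mice 1 to 3, compared with 11.1, 0.191 and 0.379 CPM in DSS+BV mice 1 to 3. Tnfrsf13b (TACI) was at 10.7, 4.72 and 21.7 CPM and at 16.3, 3.25 and 3.29 CPM in the same order. Cxcr5, the receptor for Cxcl13 on follicular lymphocytes, was at 11.98, 1.06 and 18.6 CPM and at 16.03, 1.15 and 1.201 CPM. In each of these genes DSS 1, DSS 3 and DSS+BV 1 lay above the other libraries, and none was called between the treatments (edgeR adjusted p of 0.742 for Tnfrsf13b, 0.824 for Cxcr5 and 0.843 for Tnfrsf13c). These genes were picked after their values were seen.

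Tnfrsf8 (CD30), a receptor of activated lymphocytes, was at 60.1, 3.79 and 32.1 CPM in the DSS mice as against 11.3, 3.31 and 0.632 CPM in the DSS+BV group, with a log2 fold change of -2.65 (edgeR adjusted p = 0.425). It too was chosen after its values were seen.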
